A study of Mus musculus with 8 samples.

Results

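Cytosolic ribosomal protein genes encode the protein parts of the 40S and 60S subunits of the ribosome that translates nuclear messages. They were taken from the liver count table by symbol alone, as rows named Rpl or Rps with a number and at most a closing a or x, or Rplp0, Rplp1 or Rplp2. This gave 75 of the 24940 genes in the table, of which 43 belong to the large subunit outside the stalk, 29 to the small subunit and 3 to the P stalk. Rpsa, Rps3a1 and Fau also give ribosomal proteins but fall outside this rule and are given separately below.

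Livers of 4 FxrKO males and 4 Bcl6LKO FxrKO males were compared. All 8 mice carried floxed Bcl6 alleles and a homozygous whole-body deletion of Fxr (gene Nr1h4), the bile acid receptor. The second group also carried Albumin-Cre, which removes Bcl6, a transcriptional repressor, in hepatocytes. The age of the mice is not given in the sources used here, livers of mice with intact Fxr were not analysed here, and Bcl6 loss, the Cre transgene and the liver disease of the double knockout cannot be told apart.

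Ribosomal proteins are kept at matched amounts, because copies that find no place in a ribosome are degraded. Their messages usually start with a C followed by a run of pyrimidines, the 5′ terminal oligopyrimidine (TOP) motif, through which mTORC1 and LARP1 set how strongly they are translated and how stable they are. In liver, ribosome content follows feeding, growth and regeneration. Most of these genes have many processed pseudogenes, which are intronless copies of the message elsewhere in the genome.

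The libraries held between 7586241 and 11839503 counts on genes, so that 3 counts are worth 0.253 to 0.395 CPM, the unit that puts all libraries on the same size, a floor that covers counting error only. Counts of livers of the same genotype always differed by more than sampling noise (chi-square over degrees of freedom of 10.9 to 50.6). Bcl6 was lower in the Bcl6LKO FxrKO livers, at a log2 fold change of -2.73 with a standard error (SE) of 0.40 (edgeR's quasi-likelihood test, adjusted p = 0.00123). Nr1h4 was still counted in all 8 livers, at 56.7 to 62.6 CPM in FxrKO and 39.4 to 48.1 CPM in Bcl6LKO FxrKO livers, and a count over the whole gene does not show whether the deleted part is missing. Albumin (Alb) took 4.70 ± 0.475% of all counts in FxrKO livers and 12.8 ± 0.608% in Bcl6LKO FxrKO livers (SD, n = 4 each), so every gene was examined with TMM factors, which lessen the pull of such genes, and with total counts alone. With TMM factors the median log2 fold change of all 12340 tested genes was 0.010, and with total counts it was -0.149.

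The letters around the annotated start of transcription are shown for the genes whose counts carry the results below and for the 3 stalk genes where an entry was found. Each line holds 40 bases of RefSeq sequence on GRCm38.p6 in the direction of transcription, 20 before the start and 20 from it onwards. Capitals mark the longest run of at least 6 C or T letters that begins with C on the transcribed strand.
Rpl15: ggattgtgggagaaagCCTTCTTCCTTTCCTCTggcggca
Rpl5: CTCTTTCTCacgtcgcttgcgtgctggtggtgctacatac
Rpl35a: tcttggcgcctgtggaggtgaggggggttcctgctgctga
Rpl41: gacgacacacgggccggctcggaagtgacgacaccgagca
Rpl13a: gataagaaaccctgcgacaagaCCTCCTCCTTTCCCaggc
Rps10: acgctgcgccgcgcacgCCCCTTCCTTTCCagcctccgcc
Rpl4: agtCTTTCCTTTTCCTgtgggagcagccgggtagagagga
Rplp0: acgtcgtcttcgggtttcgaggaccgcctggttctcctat
Rplp2: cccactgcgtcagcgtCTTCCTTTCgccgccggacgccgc

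The windows lie at chr14:18270967-18271006 on the minus strand for Rpl15, chr5:107900508-107900547 on the plus strand for Rpl5 and chr16:33056494-33056533 on the plus strand for Rpl35a. Those of Rpl41, at chr10:128549149-128549188, Rpl13a, at chr7:45128726-45128765, and Rps10, at chr17:27635225-27635264, are on the minus strand. Those of Rpl4, at chr9:64173367-64173406, Rplp0, at chr5:115559447-115559486, and Rplp2, at chr7:141447631-141447670, are on the plus strand. The run of Rpl15 is 17 letters long and spans the annotated start, that of Rps10 has 13 letters and also spans it, and that of Rpl5 has 9 letters and ends before it.

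Starts were listed for 55 of the 75 genes. A run of this kind was found at a listed start of 38 of these 55 genes (69.1%), against 8859 of 27025 genes with a listed start (32.8%) and 26 of 69 mitochondrial ribosomal protein genes (37.7%). At the start closest to that of the count table it was found in 35 of 55 genes (63.6%), and the longest had 20 letters. The letters alone do not show where transcription began in these livers.

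The 75 genes together took about 0.5% of all counts in both genotypes. The share was 0.503, 0.491, 0.515 and 0.491% in FxrKO livers 1 to 4 and 0.474, 0.455, 0.450 and 0.611% in Bcl6LKO FxrKO livers 5 to 8. Livers 5, 6 and 7 lay below every FxrKO liver and liver 8 lay above all of them, so the groups overlapped. The means were 0.5 ± 0.0116% and 0.498 ± 0.0763% (SD, n = 4 each), and without liver 8 the second mean was 0.460 ± 0.0130% (SD, n = 3).

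The order of the groups depended on what the counts were set against. Leaving out the 50 most counted genes, none of which is a ribosomal protein gene, the share was 0.729, 0.712, 0.734 and 0.714% in FxrKO livers and 0.802, 0.813, 0.758 and 1.05% in Bcl6LKO FxrKO livers, with no overlap and the double knockout higher. Those 50 genes took 30.8 ± 0.626% of all counts in FxrKO livers and 41.8 ± 1.56% in Bcl6LKO FxrKO livers (SD, n = 4 each). The summed level with TMM factors was 4768, 4657, 4850 and 4671 CPM in FxrKO livers and 4893, 5053, 4589 and 6566 CPM in Bcl6LKO FxrKO livers, where liver 7 lay below the FxrKO range and the other 3 above it.

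**Figure D1:**
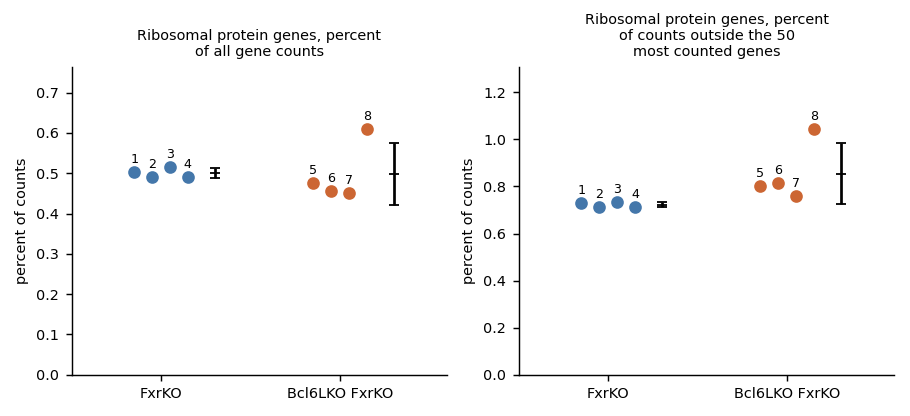
Percent of counts on the 75 cytosolic ribosomal protein genes in each liver, of all gene counts (left) and of the counts outside the 50 most counted genes (right). Points are livers with their number and black bars the mean and SD of 4 livers. On the left livers 5, 6 and 7 lie below the FxrKO livers and liver 8 above them at 0.611%, and on the right all 4 Bcl6LKO FxrKO livers lie above the FxrKO livers.

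The balance between the subunits moved little. Large-subunit counts were 1.18, 1.16, 1.18 and 1.17 times the small-subunit counts in FxrKO livers and 1.20, 1.19, 1.21 and 1.18 times in Bcl6LKO FxrKO livers. This ratio of counts needs no scaling between libraries, and its group means of 1.17 ± 0.0103 and 1.19 ± 0.0125 (SD, n = 4 each) belong to groups whose ranges overlap through liver 8 alone, livers 5 to 7 lying above every FxrKO liver.

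The expression filter of edgeR left 66 of the 75 genes to test. With TMM factors none was called higher and 3 were called lower in Bcl6LKO FxrKO livers at an adjusted p under 0.05, against 16.2% of all tested genes called higher and 13.5% called lower. At an unadjusted p under 0.05, 4 genes were higher and 3 were lower, against 21.8% and 19.1% of all tested genes. DESeq2 called 1 gene higher, Rpl41, and 3 lower, against 16.5% and 14.3% of all genes in that fit. With total counts none was higher and 3 were lower, against 11.4% and 23.9% of all tested genes, and at an unadjusted p under 0.05 none was higher and 7 were lower, against 14.9% and 30.8%.

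The genes that were tested lay close to 0. Their median absolute log2 fold change was 0.159 with TMM factors, against 0.311 over all tested genes, and 64 of 66 lay within 0.5 of 0, against 68.5% of all tested genes. The 95% interval lay wholly between -0.5 and 0.5 for 32 of the 66 genes, so for the others a change of that size in at least 1 direction was not resolved with 4 livers a group. The median SE was 0.14.

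The signs of the remaining small differences depended in part on the scaling and on 1 liver. With TMM factors 50 of the 66 genes were above 0 and 16 below, with a median of 0.111, against 0.010 over all genes and 51% of all genes above 0. With total counts 23 were above 0 and 43 below, with a median of -0.052, against -0.149 over all genes and 37.6% above 0. In all, 27 genes were above 0 with TMM factors and below 0 with total counts, and 39 had the same sign in both. Without liver 8, the TMM values were above 0 for 36 genes and below for 30, with a median of 0.008, and the total-count values were above 0 for 10 and below for 56, with a median of -0.143.

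**Figure D2:**
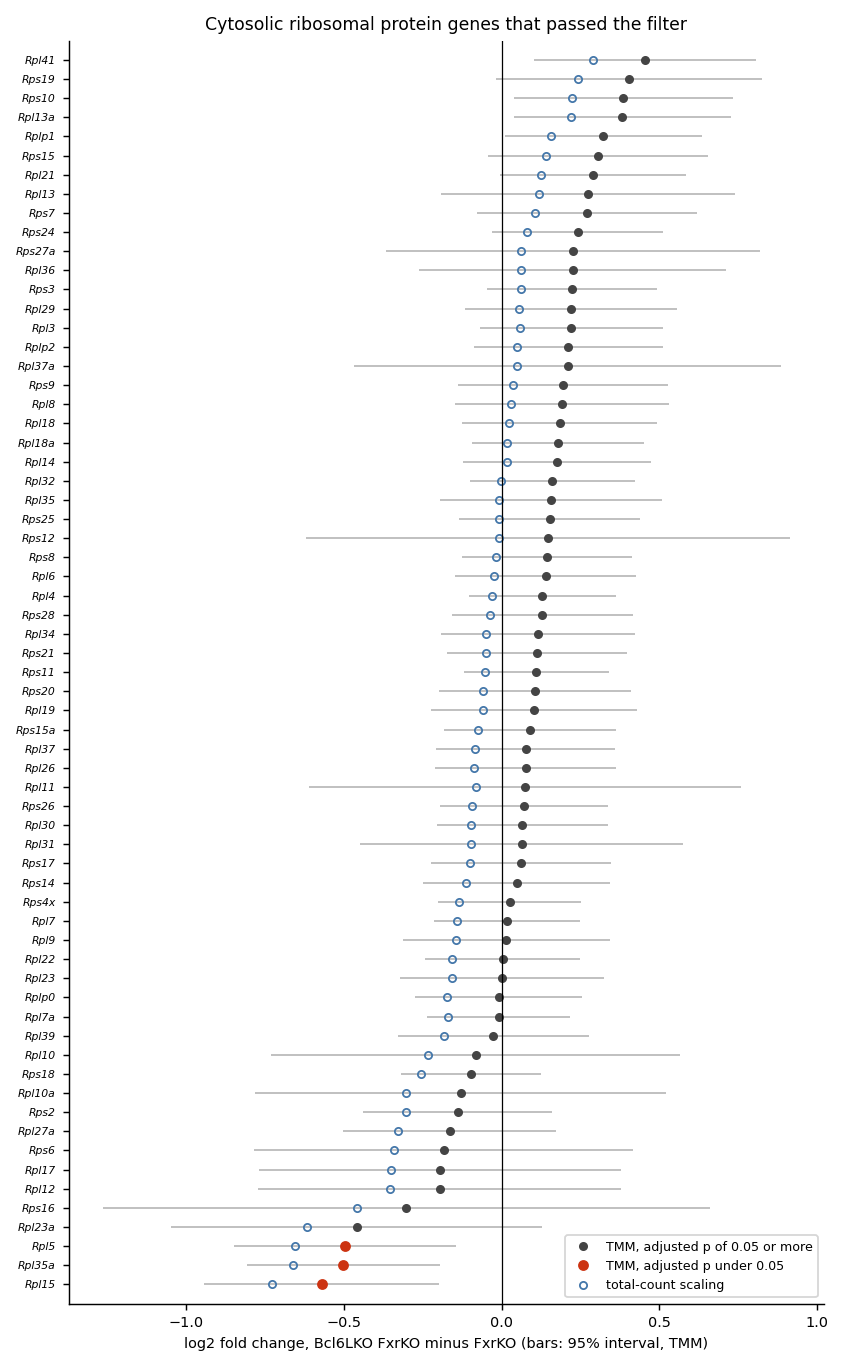
Log2 fold change of all but 1 of the 66 tested genes, Bcl6LKO FxrKO minus FxrKO (n = 4 livers each), with TMM factors (filled points, bars 95% interval) and with total counts (open circles). Rpl15, Rpl35a and Rpl5 in red passed an adjusted p of 0.05, most other filled points lie within 0.5 of 0, and each open circle lies to the left of its filled point.

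Liver 8 of the Bcl6LKO FxrKO group stood apart from its group. It was the highest of all 8 livers in 43 of the 66 tested genes, against 23.3% of all tested genes. Among the 4 Bcl6LKO FxrKO livers it was highest in 45 of the 66 and lowest in 5, against 32.7% and 34.1% of all tested genes. The median deviation from the FxrKO mean of each gene, on the log2(CPM + 0.5) scale with TMM factors, was 0.365 in liver 8 and 0.005, 0.041 and -0.059 in livers 5, 6 and 7.

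Some other measurements were also high in liver 8, and others were not. Summed CPM of 78 mitochondrial ribosomal protein genes was 2625 there, against 2017 to 2086 in livers 5 to 7 and 2207 to 2422 in FxrKO livers. The sum of 105 ribosome assembly genes was 3040 CPM, against 2490 to 2580 in livers 5 to 7 and 2520 to 2720 in FxrKO livers. The 8 macrophage markers of a fixed list summed to 756 CPM, against 485 to 524 in livers 5 to 7 and 339 to 456 in FxrKO livers, and 3 of the 8 were called higher in the double knockout. Sums of some other lists did not exceed the FxrKO livers there. The sum of 19 other messages known to carry TOP motifs was 1650 CPM, against 1700 to 1820 in FxrKO livers. Elongation and termination factors summed to 5080 CPM, against 4770 to 5150. Initiation factors summed to 3430 CPM, against 3360 to 3590. In each of these sums liver 8 lay above livers 5 to 7. The mTORC1 and TOP control genes were at 1390 CPM, the lowest of the 8 livers. The part of these differences in the ribosomal protein values was not tested.

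**Figure D3:**
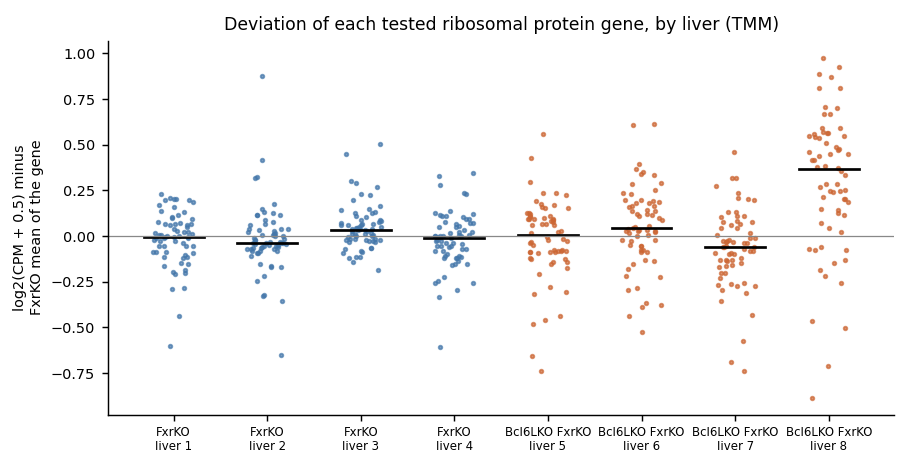
Deviation of each of the 66 tested genes from its FxrKO mean, in log2(CPM + 0.5) with TMM factors, by liver. Each point is a gene and each black line the median of a liver. The line of liver 8 stands at 0.365, while the other 7 lie between -0.059 and 0.041.

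The 3 genes called lower were all parts of the large subunit. Rpl35a encodes a 60S protein needed for ribosomal RNA processing and mutated in some patients with Diamond-Blackfan anaemia. Its level was 12.7, 12.4, 13.5 and 12.2 CPM in FxrKO livers and 10.2, 9.22, 7.70 and 8.81 CPM in Bcl6LKO FxrKO livers, resting on 76 to 129 counts per liver. All FxrKO livers were above all Bcl6LKO FxrKO livers, and liver 8 was not the extreme of its group. The log2 fold change was -0.50 (SE 0.14, adjusted p = 0.0179, edgeR). A two-sided exact permutation test over the 8 livers gave p = 0.0286, the smallest it can give. Every gene without overlap gets this value, so it adds nothing to the separation of the groups.

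Rpl15 encodes another 60S protein, also among the genes mutated in Diamond-Blackfan anaemia. It was at 16.0, 24.7, 20.2 and 18.7 CPM in FxrKO livers and at 12.3, 14.9, 16.0 and 10.4 CPM in Bcl6LKO FxrKO livers. The groups touched but did not overlap, since FxrKO liver 1 and Bcl6LKO FxrKO liver 7 both round to 16.0 CPM, and liver 8 was the lowest of all. The log2 fold change was -0.57 (SE 0.17, adjusted p = 0.0248, edgeR).

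Rpl5 encodes the protein that, with Rpl11, carries 5S ribosomal RNA into the large subunit and binds Mdm2 when assembly fails. Its level was 8.12, 9.12, 9.13 and 10.03 CPM in FxrKO livers and 6.35, 6.92, 7.21 and 5.36 CPM in Bcl6LKO FxrKO livers, again without overlap and with liver 8 lowest. The log2 fold change was -0.50 (SE 0.16, adjusted p = 0.0354, edgeR). Its partner Rpl11 was at 0.852 to 1.62 CPM in FxrKO livers and 0.999 to 1.58 CPM in Bcl6LKO FxrKO livers. Rpl11 rested on 9 to 15 counts per liver. Its log2 fold change was 0.07 (SE 0.32, 95% interval -0.61 to 0.76, adjusted p = 0.882, edgeR). This interval contains the -0.50 of Rpl5, so a difference between Rpl11 and Rpl5 was not resolved.

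With total counts these 3 genes were also the ones called, at log2 fold changes of -0.66 for Rpl35a (adjusted p = 0.00372), -0.73 for Rpl15 (adjusted p = 0.00649) and -0.65 for Rpl5 (adjusted p = 0.00919, edgeR). Setting each gene against the sum of the 75 genes in place of the library total left Rpl35a called, at -0.64 (adjusted p = 0.0195), with Rpl15 at an adjusted p of 0.0556 and Rpl5 at 0.0594. In that fit 1 gene of the family was called lower and none higher, against 13% and 9.47% of all tested genes, and at an unadjusted p under 0.05 the family had 4 lower and 1 higher, against 22.6% and 14.3%. When each liver was left out in turn, Rpl35a was called in 6 of 8 fits with TMM factors, Rpl15 in 5 and Rpl5 in 3, and each was called in all 8 fits with total counts. The adjusted p of these TMM fits reached 0.0528 for Rpl35a, 0.0842 for Rpl15 and 0.0949 for Rpl5, and without FxrKO replicate 3 none of the 75 genes was called. Without Bcl6LKO FxrKO replicate 8, Rpl5 was at -0.42 (adjusted p = 0.0631, edgeR), 2 of the 75 genes were called lower and none higher, against 13.5% and 15% of all genes in that fit.

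**Figure D4:**
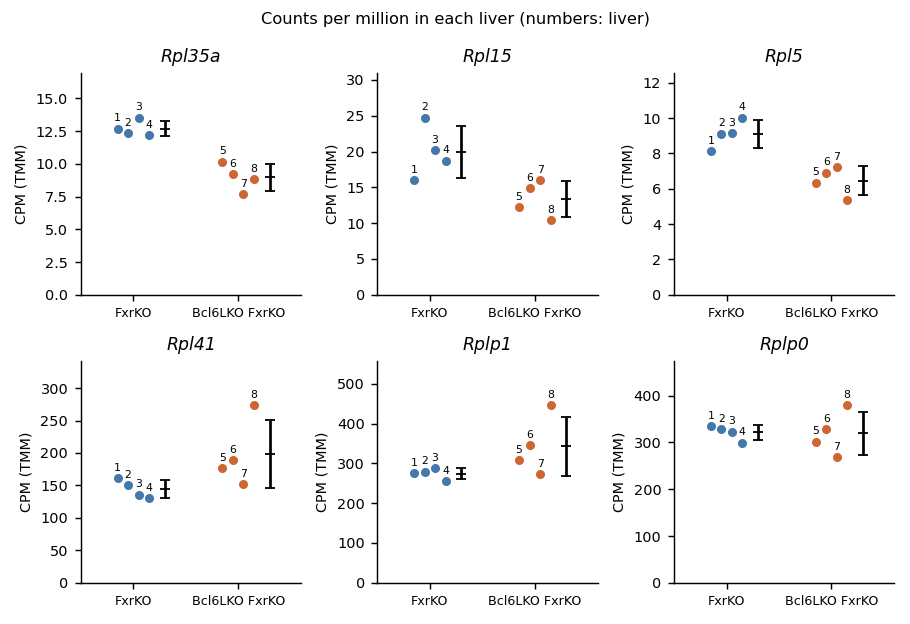
CPM with TMM factors in each liver for Rpl35a, Rpl15, Rpl5, Rpl41, Rplp1 and Rplp0, on axes that start at 0. Points are livers with their number and black bars the mean and SD of 4 livers. The groups do not overlap for Rpl35a, Rpl15 and Rpl5, and liver 8 is the highest point for Rpl41, Rplp1 and Rplp0.

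No overlap between the groups was seen for 4 of the 66 genes with TMM factors, all of them lower in the double knockout, against 15.2% of all tested genes lower and 16.1% higher. The fourth was Rpl23a, a protein at the exit of the peptide tunnel where the signal recognition particle docks. Its level was 1.77, 1.5, 1.61 and 1.42 CPM in FxrKO livers and 1.21, 1.09, 1.27 and 0.999 CPM in Bcl6LKO FxrKO livers. The log2 fold change of -0.46 had an SE of 0.27 and did not pass the test (adjusted p = 0.224, edgeR). With total counts 6 genes were lower without overlap, adding Rpl27a and Rps18, against 24.4% of all tested genes lower, and none was higher, against 10.7%.

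The P stalk is the flexible arm of the large subunit that recruits elongation factors, with Rplp0 as its base and Rplp1 and Rplp2 as paired arms. Rplp0, long used as a reference gene in liver qPCR under the name 36b4, was at 335, 328, 323 and 300 CPM in FxrKO livers and at 302, 328, 269 and 379 CPM in Bcl6LKO FxrKO livers. The groups overlapped and the Bcl6LKO FxrKO livers spread on both sides of the others. The log2 fold change was -0.01 (95% interval -0.27 to 0.26, adjusted p = 0.963, edgeR) with TMM factors and -0.17 (adjusted p = 0.274) with total counts.

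Rplp1 was at 276, 279, 289 and 255 CPM in FxrKO livers and at 308, 346, 273 and 446 CPM in Bcl6LKO FxrKO livers. Its log2 fold change of 0.32 did not pass the test (SE 0.14, adjusted p = 0.111, edgeR) and was 0.17 without liver 8. Rplp2 was at 38.3 ± 3.63 and 44.3 ± 8.23 CPM (SD, n = 4 each), with a log2 fold change of 0.21 (adjusted p = 0.274, edgeR).

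Among the large-subunit genes with the largest positive values, none passed the TMM test. Rpl41, a very short peptide at the bridge between the subunits, was at 161, 150, 136 and 131 CPM in FxrKO livers and at 177, 189, 152 and 273 CPM in Bcl6LKO FxrKO livers. Liver 7 lay within the FxrKO range and liver 8 far above it. The log2 fold change was 0.46 (SE 0.16, adjusted p = 0.0510, edgeR), 0.29 with total counts (adjusted p = 0.166) and 0.26 without liver 8 (adjusted p = 0.0951). DESeq2 called it at an adjusted p of 0.0420.

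Rpl13a, which leaves the ribosome to repress certain messages after interferon gamma, was at 227 ± 9.08 and 296 ± 80.8 CPM (SD, n = 4 each), with liver 8 at 416 CPM and livers 5 to 7 at 237 to 268 CPM. Its log2 fold change was 0.38 (adjusted p = 0.0883, edgeR). Rpl21 was at 42.0 ± 1.32 and 51.2 ± 9.86 CPM, with a log2 fold change of 0.29 (adjusted p = 0.130).

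The small-subunit genes held no call with TMM factors, total counts or DESeq2 among 25 tested. With TMM factors 21 were above 0 and 4 below, with a median of 0.128 and a range from -0.30 to 0.40, and with total counts 9 were above and 16 below. Rps10, near the entry of the message channel and marked by ubiquitin when ribosomes collide, was at 22.6 ± 2.64 and 29.5 ± 6.93 CPM (SD, n = 4 each), with a log2 fold change of 0.39 (adjusted p = 0.0884, edgeR). Livers 5 to 7 were at 25.5 to 26.8 CPM and liver 8 at 39.9 CPM.

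Rps19, the gene most often mutated in Diamond-Blackfan anaemia, was at 52.5 ± 7.89 and 69.3 ± 22.6 CPM (SD, n = 4 each), with a log2 fold change of 0.40 (adjusted p = 0.139, edgeR) and liver 8 at 103 CPM. Rps15, whose tail reaches the decoding site, was at a log2 fold change of 0.31 (adjusted p = 0.175), Rps24 at 0.24 (adjusted p = 0.167) and Rps3, part of the message entry channel, at 0.22 (adjusted p = 0.202, edgeR).

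The small-subunit genes on the lower side were also short of the TMM threshold. Rps2, another entry channel protein, was at 114, 118, 148 and 114 CPM in FxrKO livers and at 116, 105, 91.0 and 136 CPM in Bcl6LKO FxrKO livers, with a log2 fold change of -0.14 (adjusted p = 0.477, edgeR). Rps18 was at 101 ± 1.94 and 94.3 ± 8.81 CPM (SD, n = 4 each), at -0.10 (adjusted p = 0.510). With total counts and without liver 8, Rps2 was called at -0.40 (adjusted p = 0.0273), Rps18 at -0.30 (adjusted p = 0.0298) and Rps14, a platform protein beside the exit of the message, at -0.27 (adjusted p = 0.0410, edgeR), besides Rpl15, Rpl35a and Rpl5, against 23.8% of all genes in that fit.

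Rpl27a (log2 fold change -0.17, adjusted p = 0.453), Rpl12, at the base of the stalk (-0.20, adjusted p = 0.613), Rpl17 (-0.20, adjusted p = 0.614) and Rps16 (-0.30, SE 0.45, adjusted p = 0.645, edgeR) were other genes on the lower side. Rps16 lay between 0.662 and 2.75 CPM in FxrKO livers, of which liver 2 was the highest, and its value was 0.20 without that liver.

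The tested genes were also split by the C or T runs described above, which can end before the annotated start or begin after it. Such a run is therefore not in itself a TOP motif. The 30 tested genes with a run in the window around the closest start had a median log2 fold change of 0.113. Those without one, 17 genes, had a median of 0.025. The ranges were -0.57 to 0.39 and -0.50 to 0.46, so each set held genes on both sides. The 19 tested genes with no listed start had a median of 0.161, above both of these medians. All are values with TMM factors, and the difference between the sets was not tested. Of the 3 genes called lower, Rpl15 and Rpl5 have a run in the windows shown and Rpl35a has none.

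The counted levels per transcript length differed widely among these genes, whose proteins are built into the same particle. On the scale of CPM per kilobase of transcript (RPKM, here from total counts), the highest levels in FxrKO livers were 626 ± 35.1 for Rplp1, 378 ± 18.9 for Rpl4, which lines the peptide tunnel, 344 ± 32.7 for Rpl41, 301 ± 4.21 for Rpl32 and 294 ± 16.8 for Rpl8, which lies near the peptidyl transferase centre (SD, n = 4 each). Rpl32 and Rpl8 did not differ beyond their spread. In Bcl6LKO FxrKO livers the same 5 genes were at 698 ± 138, 370 ± 26.4, 421 ± 105, 301 ± 47.0 and 300.3 ± 75.9 RPKM, so that Rpl41 and Rpl4 changed places within their spread.

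The 5 genes with the lowest mean over all 8 livers, Rpl38, Rpl36a, Rpl24, Rps23 and Rpl27, had 0.408, 0.478, 0.570, 0.698 and 0.837 RPKM in FxrKO livers, with SDs of 0.201 to 0.549, so their order was not resolved. Rps29, at 0.799 RPKM, and Rpl28 lay just below Rpl27 in those livers. The genes that did not pass the filter were these 5 and Rpl28, Rps13, Rps27 and Rps29. Each of these 9 had between 0 and 9 counts in every liver, at which a difference between the genotypes was not detectable. The 20 most counted of the 75 genes held 76.6% of all their counts, and 9 genes had a mean under 1 CPM in FxrKO livers while 17 were above 100 CPM.

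These levels moved with how much of each message is found nowhere else. The deposited counts hold only reads with 1 place in the genome, so reads that fit a pseudogene equally well are missing. Every stretch of 100 bases, the read length, was looked up in all other transcripts of GENCODE M21. A median of 63.1% of such windows were found in no other gene, from 8.4% in Rpl10 to 100% in genes such as Rpl22, Rpl32, Rps21 and Rps3, and 68 of the 75 genes shared a window with at least 1 annotated pseudogene, Rpl21 with 39. Mitochondrial ribosomal protein genes, whose products serve the ribosome of mitochondria, had a median of 100%, and 63 of 78 shared no window.

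Over the 61 genes whose reference transcript was within 10% of the table's length, RPKM and the share of such windows had a Spearman correlation of 0.56, given as a description across genes that share libraries. The median RPKM in FxrKO livers was 115 for 22 genes with at least 75% of such windows and 2.60 for 11 genes with under 25%. Over the 54 of them that were tested, the correlation of the share with the log2 fold change was 0.22. Of the genes that failed the filter, Rpl36a had 16.4% of its windows in no other gene, Rps13 22.4% and Rpl24 24.2%. The rest had more, with Rpl27 at 50.7%, Rps27 at 54.4% and Rpl38 at 57%. Rpl28 was at 47.9% and Rps23 at 55%, both outside the length match. Rps29 had 75.3% and was counted 1 to 6 times per liver.

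**Figure D5:**
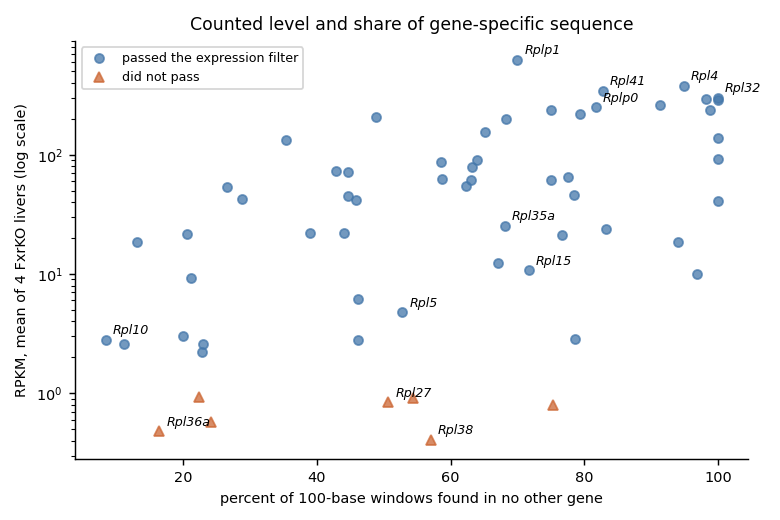
RPKM in FxrKO livers (mean of 4, log axis) against the percent of 100-base windows of a gene's transcript found in no other annotated gene, for the 61 genes with a matching transcript length. Circles passed the expression filter and triangles did not. The genes above 250 RPKM have at least 70% of such windows, and those with under 25% lie below 50 RPKM.

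For the genes called lower, the part of the message that the counts can see differed. In Rpl15 71.7% of windows were found in no other gene, and 87.4% of these were centred in the 3′ untranslated region of the matched transcript. In Rpl5 the share was 52.8%, of which 93.1% were in the 3′ untranslated region, and no window centred in the coding part was free of other genes. In Rpl35a it was 68.1%, of which 2.8% were in the 3′ untranslated region. A gene count does not tell a change of the whole message from a change in the use of its 3′ end.

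Rpsa, Rps3a1 and Fau, outside the symbol rule, held no call with TMM factors. Rpsa, a small-subunit protein also known as the laminin receptor, was at 110, 109, 106 and 96.6 CPM in FxrKO livers and at 112, 114, 107 and 194 CPM in Bcl6LKO FxrKO livers, so it too was high in liver 8. Its log2 fold change was 0.33 (adjusted p = 0.179, edgeR). Rps3a1 was at 0.13 (adjusted p = 0.349), and Fau, a fusion of a small-subunit protein, at -0.37 (adjusted p = 0.325).

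Of 8 paralogs of ribosomal protein genes in the table, 5 were tested and none was called with TMM factors. Rps4l fell short at a log2 fold change of -1.02 (SE 0.38, adjusted p = 0.0719, edgeR), with 11.9 ± 6.24 and 6.00 ± 2.38 CPM (SD, n = 4 each), and Rpl7l1 at -0.25 (adjusted p = 0.0719). With total counts both were called, Rps4l at -1.18 (adjusted p = 0.0300) and Rpl7l1 at -0.41 (adjusted p = 0.00646). Rpl36al, Rpl22l1 and Rps27l were at 0.10, 0.08 and 0.06, Rpl3l had at most 4 counts in a liver, and Rpl10l and Rpl39l had none.

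The mitochondrial ribosomal protein genes, which share little sequence with other genes, are given as a contrast. Of 77 tested, none was called higher and 9 were called lower with TMM factors, against 16.2% and 13.5% of all tested genes, with a median of -0.059. Mrpl39 fell from 39.6 ± 2.07 to 28.9 ± 2.55 CPM (log2 fold change -0.45, adjusted p = 0.00783), Mrpl35 by 0.47 on the log2 scale (adjusted p = 0.0133) and Mrpl47 by 0.66 (adjusted p = 0.0173, edgeR). With total counts none was called higher and 19 were called lower, against 11.4% and 23.9% of all tested genes.

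The counts for other parts of the translation machinery are read against the 16.2% of all tested genes called higher and the 13.5% called lower with TMM factors. Among 11 tested elongation and termination factors, none rose and 2 fell, Abce1, which recycles ribosomes after termination (log2 fold change -0.51, adjusted p = 0.0270), and Gspt1, the release factor eRF3 (-0.49, adjusted p = 0.0281, edgeR). Among 19 other messages known to carry TOP motifs, Vim rose (0.80, adjusted p = 0.0129) and Nap1l1 fell (-0.48, adjusted p = 0.00916), and with total counts 1 was called higher and 9 lower, against 11.4% and 23.9% of all tested genes. Among 13 tested hosts of small nucleolar RNAs none was called, with a median of -0.162. Among 105 ribosome assembly genes 1 rose, Eif6, which keeps free 60S subunits from joining (0.83, adjusted p = 0.00282), and 3 fell, Utp4 (-0.54), Rrs1 (-0.50), which brings 5S ribosomal RNA with Rpl5 and Rpl11 into the subunit, and Rpf1 (-0.40), with a median over the 105 of -0.036. With total counts 1 of the 105 was called higher and 18 lower, against 11.4% and 23.9% of all tested genes, with a median of -0.197.

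Markers of other cells were higher in the double knockout. Summed marker levels did not overlap between the groups for 8 cholangiocyte genes (42.2 to 67.3 against 94.2 to 196 CPM), 8 stellate cell and fibroblast genes (126 to 185 against 227 to 346 CPM) and 8 endothelial genes (145 to 203 against 209 to 267 CPM). The same held for the macrophage list above, 7 T and NK cell genes (6.23 to 11.2 against 14.1 to 20.9 CPM), 6 B and plasma cell genes (5.25 to 8.81 against 9.95 to 16.0 CPM) and 8 neutrophil genes (5.70 to 13.0 against 14.6 to 24.9 CPM). With TMM factors 4 of 6 tested cholangiocyte and 5 of 8 stellate cell and fibroblast genes were called higher. So were 2 of 8 endothelial and 3 of 8 macrophage genes. The same went for 2 of 2 tested T and NK cell, 1 of 2 B and plasma cell and 2 of 3 neutrophil genes. None of these 7 lists held a gene called lower, and over all tested genes 16.2% were called higher and 13.5% lower. With total counts 1 cholangiocyte gene was called lower, against 23.9% of all tested genes. Cftr and Ly6g had at most 3 counts in every liver. The 8 hepatocyte genes summed to 54500 to 67300 against 146000 to 163000 CPM, mostly Alb, with Ttr lower (log2 fold change -0.76, adjusted p = 0.00220, edgeR), and the sum of 8 erythroid genes overlapped (736 to 1090 against 971 to 1460 CPM). Of 7 tested erythroid genes 5 were called higher with TMM factors, among them the globins Hba-a1 and Hba-a2 (both 0.77), and 1 lower, Alas2 (-0.93, adjusted p = 4.37e-05, edgeR). Total counts left 2 of the 7 called higher and 1 lower, against 11.4% and 23.9% of all tested genes. The part of all these markers in the ribosomal protein values was not tested. In whole liver a change in the number of cells of a type and a change in RNA per cell cannot be told apart.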

How the data were processed

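Poly(A) RNA of 8 male livers was sequenced with a stranded kit as 100-base single-end reads. The authors aligned them to mm10 with STAR 2.5.2, allowing 4 mismatches and 1 location, counted exonic reads of each gene with HOMER 4.10, keeping 1 transcript a gene, and deposited these raw counts beside the transcript length. The stated counting options name no strand, so overlapping genes are uncertain. Reads shared with pseudogenes are not in the counts. The study names DESeq2 for its tests.

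The genes and all lists were chosen with earlier results of these data known. Counts were tested in R 4.3.3 with edgeR 4.0.16 (filterByExpr, TMM, robust quasi-likelihood fit, Benjamini-Hochberg over 12340 tested genes), and refitted with total counts and with the summed counts of the 75 genes as library size. A call is an adjusted p under 0.05. CPM use the TMM factors, RPKM the total counts and deposited length. Permutation tests were exact and two-sided over 70 orderings of the livers, whose labels give no pairing and do not say more than that they are separate mice. Named were the 3 stalk genes, the 10 smallest adjusted p and 5 largest log2 fold changes in each direction, the 5 smallest adjusted p in each direction against the family sum, the 5 highest and 5 lowest RPKM, all genes that failed the filter, and up to 3 called genes per list and direction. Some genes that this gives are not reported here. Rpl11, Rps14, Rpl10, Rpl22 and Rps21 were named after their values were seen. Alternatives were DESeq2 1.42.0, limma 3.58.1 (voom with quality weights), other scalings and filters, and each liver left out. The tools were tested on simulated data. Totals of 7586241 to 11839503 counts limit genes near 1 CPM. No column of the table belonged to another sample.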

Additional observations from a re-analysis of the deposited data

Results flagged for a closer look

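In 54 groups of 4 livers a single liver far from the other 3 was looked for, and 6 groups were picked out. The groups were 25 named genes and 2 family measures in both genotypes. Most of these genes were named by adjusted p or fold change in these same livers. The nominal rate of about 1 in 20 therefore cannot be set against the 6. In 5 of the 6 groups the liver was Bcl6LKO FxrKO liver 8. Its gap to the next liver was 0.848 of the group's range for the share of counts on the 75 genes, at 0.611% against 0.450 to 0.474% in livers 5 to 7. The gap was 0.907 of the range for Rps10, at 39.9 CPM against 25.5 to 26.8 CPM, and 0.862 for Rps15, at 251 CPM against 142 to 157 CPM. It was 0.843 for Rpl8, at 379 CPM against 223 to 248 CPM, and 0.835 for Rps19, at 103 CPM against 53.0 to 61.2 CPM. The genes share this liver, so these 5 are not independent. The sixth was Rps2 in FxrKO liver 3, at 148 CPM against 114 to 118 CPM in the other FxrKO livers, a gap of 0.865 of the range.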

How the results depend on the processing

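The number of ribosomal protein genes called higher was 0 with TMM factors and 1 with DESeq2, with upper quartile factors, with no filter and with at least 10 counts in every liver, Rpl41 in each. Leaving out single livers gave 0 to 3 called higher (3 without Bcl6LKO FxrKO replicate 7, Rpl41, Rpl13a and Rplp1, and 1 without replicate 5, Rpl21) and 0 to 3 called lower in place of 3. With total counts these fits gave 0 to 0 higher and 3 to 6 lower, and against the family sum 0 to 0 higher and 0 to 3 lower in place of 1. The fits by liver against these other scalings were added after seeing the data. The median log2 fold change of 0.111 was -0.052 with total counts, and with a liver left out it ranged from 0.008 (without Bcl6LKO FxrKO replicate 8) to 0.174. The ratio of the mean share of counts, double knockout to FxrKO, was 0.995, between 0.919 and 1.03 with a liver left out, and 1.18 without the 50 most counted genes. The median RPKM of 42.1 became 98.4 per kilobase of windows found in no other gene, an alternative also added after seeing the data. Signs turned for genes near 0: Rplp0 at 0.03 with upper quartile factors, 0.01 with at least 10 counts and 0.01, 0.02 and 0.07 without replicates 1, 5 and 7 (-0.10 to 0.07 over all livers); Rpl4 at -0.03 with total counts and -0.01 against the family sum; Rpl32 at 0.00 with total counts; Rpl8 at -0.01 without replicate 8 (-0.01 to 0.28); and Rps16 at 0.20 without replicate 2 (-0.58 to 0.20). The cause was not tested. Of the 448 refits of the named genes, 418 kept sign and side of the threshold, 12 fell short of it and 8 passed it. No paired analysis was run. The labels number the libraries 1 to 8, so that the groups share no number, and name no litter or pair. Other numbers in the labels follow each other across the genotypes for some livers, but are not stated to mark pairs. At the depths of these libraries, a gene near 1 CPM rests on few counts.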

Other observations

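Among 48 tested genes of the mTORC1 pathway and of TOP message control, 3 were higher and 4 lower in Bcl6LKO FxrKO livers with TMM factors, against 16.2% and 13.5% of all tested genes. Rragd, a Rag GTPase that brings mTORC1 to the lysosome, rose from 1.52 ± 0.596 to 12.2 ± 2.17 CPM (SD, n = 4 each), a log2 fold change of 2.99 (adjusted p = 2.49e-06, edgeR). Ddit4l, an inhibitor of mTORC1, rose by 2.02 on the log2 scale (adjusted p = 0.000336), and Tsc2, which holds mTORC1 inactive, by 0.34 (adjusted p = 0.0201), the last not called with total counts (0.18, adjusted p = 0.179). Eif4ebp3, a repressor of cap-dependent translation, fell from 53.6 ± 17.7 to 10.8 ± 2.25 CPM, a log2 fold change of -2.32 (adjusted p = 3.34e-05, edgeR). Larp4, which binds poly(A) tails, was lower at -0.43 (adjusted p = 0.0287), and Mxi1, a Myc antagonist, at -0.50 (adjusted p = 0.0149). With total counts 2 of the 48 were called higher and 10 lower, against 11.4% and 23.9% of all tested genes. Whether these values bear on translation was not measured here.

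Among 36 initiation factors 4 were higher and 4 lower, against the same shares of all tested genes. Eif2b4 rose by 1.08 on the log2 scale (adjusted p = 0.000329), while Eif2b1, another subunit of the same exchange factor, was lower at -0.38 (adjusted p = 0.0177, edgeR). Eif3a rose by 0.34 (adjusted p = 0.0376), and Eif3j1 (-0.57, adjusted p = 0.0220) and Eif1b (-0.44, adjusted p = 0.0286) were lower. With total counts 2 were called higher and 14 lower, against 11.4% and 23.9% of all tested genes.

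Among 22 tested genes of RNA polymerase I transcription, Taf1c (log2 fold change 1.04, adjusted p = 0.00375) and Polr2e (0.56, adjusted p = 0.0388) were higher and none was lower. Among 21 genes of ribosome quality control 2 were higher and 2 lower. For both lists the shares of all tested genes were 16.2% higher and 13.5% lower. With total counts the first list had 1 called higher and 2 lower, and the second 1 and 5. The shares of all tested genes were then 11.4% higher and 23.9% lower. Gtpbp2, which rescues stalled ribosomes, rose from 35.8 ± 3.14 to 65.0 ± 3.98 CPM (log2 fold change 0.86, adjusted p = 6.96e-05), and Ascc2 rose by 0.50 (adjusted p = 0.0265). Hbs1l, which also acts on stalled ribosomes, was lower at -0.36 (adjusted p = 0.0193, edgeR).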
